A study of Mus musculus with 12 samples.

Results

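Mechanical ventilation of the mouse lung was examined here as a main effect, that is, the ventilated arrays against the arrays not ventilated, averaged over animals with and without recombinant human PBEF (rhPBEF). The mouse gene Nampt encodes PBEF, a cytokine-like protein also known as pre-B-cell colony-enhancing factor. Total RNA of lung tissue from mice aged 8 to 12 weeks was profiled on 12 Affymetrix arrays, 3 in each of 4 groups, and all 12 enter this effect, 6 ventilated and 6 not. The control group received PBS. In the group labelled VALI ventilation lasted 4 hours with a tidal volume of 30 ml/kg, a very large breath that strains the lung. The rhPBEF group received the protein into the trachea at 20 µg per mouse, in a volume of water of 1.5 µl per gram of weight, and the rhPBEF & VALI group received the protein and the same ventilation. Arrays were assigned by sample title. The description field of every sample calls it a control animal, which the titles and treatment protocols contradict. Among probe sets with a single symbol the brightest on average over the arrays stood for each gene, which gave 18193 genes from 45037 non-control probe sets. The effect of a gene is the mean of 2 differences on the log2 scale, VALI minus control and rhPBEF & VALI minus rhPBEF, which share no array.

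The labels name no strain or sex, and no group was ventilated at a gentle volume, so the large breath cannot be told apart from anaesthesia, intubation or ventilation itself. They do not say whether the VALI mice received PBS, and they do not give the interval between rhPBEF and tissue collection. Nothing states that the replicates were separate mice, so p-values measure only the spread between these arrays. Array medians lay between 7.0 and 7.07 on the log2 scale, and within groups the correlation between arrays ran from 0.983 to 0.997. Alveolar epithelial markers averaged 12.65 to 12.80 in the 4 groups against 7.88 to 7.91 for all genes. Some arrays stood apart from their group. On ventilated array 2 heat shock genes averaged 1.69 log2 units above the controls, and on ventilated array 3 they stood at -1.04 from the controls. Skeletal muscle markers averaged 1.91 above the controls on ventilated array 3 and 1.84 above the rhPBEF mean on rhPBEF array 2. The tissue was measured in bulk, so fewer cells of a type and less RNA per cell cannot be told apart.

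The inner lining of lung vessels is kept quiescent by circulating bone morphogenetic proteins (BMPs), which bind a receptor complex of the kinase ALK1, encoded by Acvrl1, and the co-receptor endoglin, encoded by Eng. The complex drives Smad transcription factors, which switch on Id genes and, as a brake, the inhibitory Smad gene Smad6. Blood flow maintains the transcription factor Klf2 in the same cells. Overstretched lung is known to release inflammatory mediators such as interleukin 6, and tissue factor, encoded by F3, starts the clotting cascade.

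The genes lower in ventilated lungs included the BMP pathway genes Smad6, Id1, Eng and Acvrl1, the transcription factor gene Klf2 and the ephrin receptor gene Ephb4. The genes that were higher included Il6, F3, the proton-sensing receptor gene Gpr65, the ubiquitin ligase family gene Trim15 and the sphingomyelin synthase gene Sgms2. In all, 17 genes rose (0.0934% of those tested) and 23 fell (0.126%), or 40 in either direction (0.22%), at a limma adjusted p under 0.05. Of the 40 genes 7 changed at least 2-fold. The count was 65 when both arrays with high skeletal muscle markers were left out, and 461 when ventilated array 2 and rhPBEF plus ventilated array 3 were left out, a setting chosen after the values were seen. At an unadjusted p under 0.05 there were 1354 genes higher (7.44%) and 1344 lower (7.39%). Within both rhPBEF statuses, ventilated and non-ventilated arrays did not overlap for 237 genes that were higher (1.3%) and 221 that were lower (1.21%). The plot of levels by array shows 12 of the genes described.

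**Figure D1:**
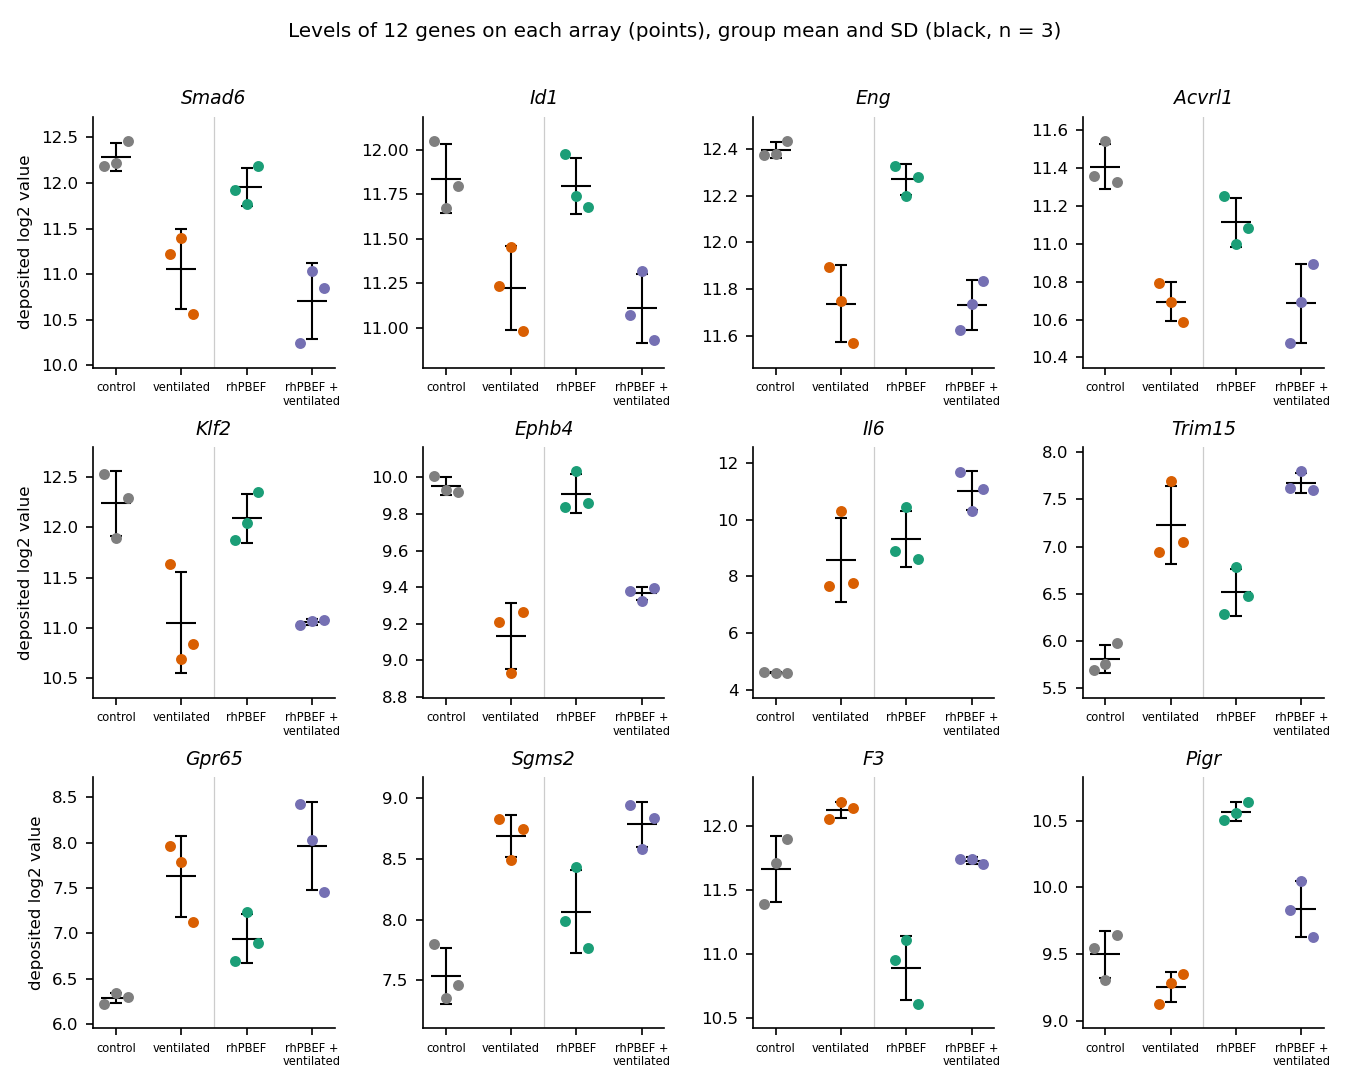
Deposited log2 values of 12 genes on every array, with control and ventilated arrays left of the grey line and rhPBEF and rhPBEF plus ventilated arrays right of it. Points are arrays, and black marks give the group mean and SD (n = 3). Smad6, Id1, Eng, Acvrl1, Klf2 and Ephb4 are lower on every ventilated array than on any non-ventilated array of the same rhPBEF status, while Il6 and Pigr overlap within one status.

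The inhibitory Smad gene Smad6 had the largest fall of all genes called. It read 12.18, 12.22 and 12.46 on the control arrays, 11.22, 11.39 and 10.56 on the ventilated arrays, 11.93, 11.77 and 12.18 after rhPBEF and 10.24, 11.04 and 10.85 after rhPBEF with ventilation. Every ventilated array lay below every array not ventilated. Smad6 fell by 1.24 ± 0.17 (SE) on the log2 scale, a 2.36-fold fall (limma adjusted p = 0.0189), and by nearly the same amount in both statuses, with differences of -1.23 ± 0.23 without rhPBEF and -1.25 ± 0.23 with it. An exact permutation of the ventilation labels within rhPBEF status gave a two-sided p of 0.005, the smallest that its 400 arrangements allow, and any gene whose arrays do not overlap in either status receives this value.

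The start of Smad6 is shown because it holds the 8 letters in which Smad binding was classically described. The stretch printed, chr9:64022045-64022074 on the minus strand in GRCm38.p6 (RefSeq), spans the transcription start, and the capitals mark GTCTAGAC, which reads alike on both strands.
Smad6: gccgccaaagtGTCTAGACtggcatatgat
These letters occur in 0.213% of 32851 RefSeq windows of 300 bases, which run from 250 bases before to 50 after each start, in 0.291% of tested genes with a window, and in 1 of the 18 fallen and 0 of the 15 risen genes that have a window. GGCGCC, a GC-rich element from BMP target genes, was in 11.9% of windows and 20.4% of the 14452 tested genes with a window, in 4 of the 18 fallen genes (Ephb4, Fgfr3, Ripor1 and She) and in 3 of the 15 risen genes. A match of letters describes the window and shows no binding.

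Id1, which encodes an inhibitor of basic helix-loop-helix transcription factors and is a BMP target, read 12.05, 11.67 and 11.79 on control, 11.23, 11.45 and 10.98 on ventilated, 11.97, 11.74 and 11.68 on rhPBEF and 11.07, 11.32 and 10.93 on rhPBEF plus ventilated arrays. Its 6 ventilated arrays were the lowest 6 of the 12. Id1 fell by 0.65 ± 0.10 (SE; limma adjusted p = 0.0351).

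Eng, the endoglin gene, read 12.38, 12.38 and 12.43 on control, 11.89, 11.75 and 11.57 on ventilated, 12.33, 12.20 and 12.28 on rhPBEF and 11.62, 11.73 and 11.84 on rhPBEF plus ventilated arrays. Every array with ventilation lay below every array without it, whatever the rhPBEF status. Eng fell by 0.60 ± 0.06 (SE; limma adjusted p = 0.00603), and its other probe set gave -0.73.

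Acvrl1, the gene of the ALK1 receptor kinase that pairs with endoglin, read 11.36, 11.54 and 11.32 on control, 10.80, 10.70 and 10.59 on ventilated, 11.26, 11.001 and 11.08 on rhPBEF and 10.47, 10.69 and 10.89 on rhPBEF plus ventilated arrays. The closest approach was between rhPBEF array 2 and rhPBEF plus ventilated array 3. Acvrl1 fell by 0.57 ± 0.08 (SE; limma adjusted p = 0.0234), with differences of -0.72 ± 0.11 without and -0.43 ± 0.11 with rhPBEF.

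Of 24 BMP, ALK1 and Id signalling genes tested, these 4 fell, 0 rose and 20 did not pass. The list held 9 members lower and 1 higher at an unadjusted p under 0.05, where 7.39% and 7.44% of all genes stood, and 6 members without overlap on the lower side, where 1.21% of all genes stood. Its median effect was -0.15 against 0.00 for all genes. The list was chosen with earlier results of these data known, and no test was made of these counts. The number of members that fell was 1 without control replicate 1 or 2 or without rhPBEF replicate 1 or 3, 2 without rhPBEF plus ventilated replicate 1 or 2, and 3 to 5 without any one of the other 6 arrays. In the same fits 3 to 250 of all genes fell, the most without rhPBEF plus ventilated replicate 3. The plot of the pathway's members places the other 20 genes.

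**Figure D2:**
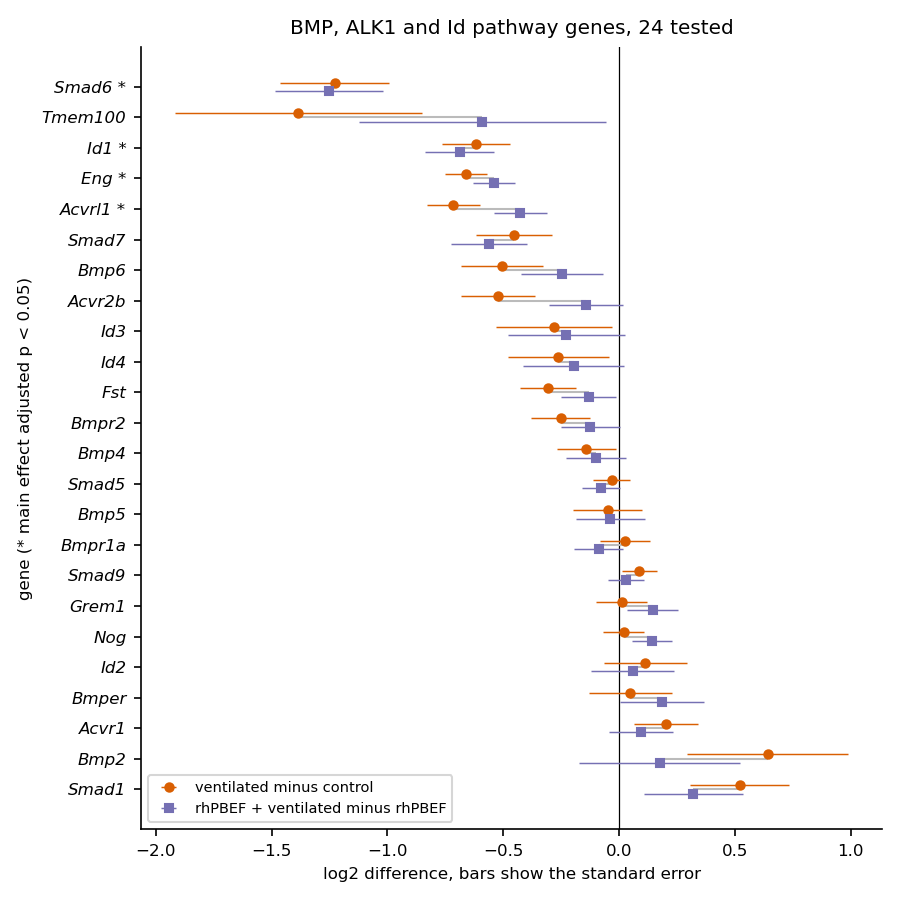
Ventilation differences of 24 BMP, ALK1 and Id signalling genes on the log2 scale, without rhPBEF (orange circles) and with rhPBEF (purple squares), with standard errors from the limma fit. Smad6, Id1, Eng and Acvrl1, marked with an asterisk, lie left of 0 in both statuses with bars that do not reach it.

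Klf2, the flow-maintained transcription factor gene, fell together with Ephb4. Klf2 read 12.53, 11.89 and 12.29 on control, 11.63, 10.69 and 10.84 on ventilated, 11.87, 12.05 and 12.35 on rhPBEF and 11.02, 11.07 and 11.08 on rhPBEF plus ventilated arrays. Ventilated array 1 lay nearest to the controls, and the 3 arrays of the combined treatment were almost equal. Klf2 fell by 1.11 ± 0.16 (SE), a 2.16-fold fall (limma adjusted p = 0.0243).

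The Klf2 promoter is printed because its control by MEF2 factors is well described in endothelium. The window holds the 250 bases before the start, chr8:72318812-72319061 on the plus strand in GRCm38.p6 (RefSeq), with the MEF2 site in capitals.
Klf2: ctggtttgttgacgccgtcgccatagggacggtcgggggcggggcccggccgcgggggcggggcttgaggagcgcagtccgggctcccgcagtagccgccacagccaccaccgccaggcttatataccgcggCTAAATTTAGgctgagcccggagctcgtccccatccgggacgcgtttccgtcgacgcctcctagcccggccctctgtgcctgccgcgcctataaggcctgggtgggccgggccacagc
The site lies 118 to 109 bases before the start and reads alike on both strands. A MEF2 site stood in 0.557% of the 32851 windows and in 0.574% of the 14452 tested genes with a window, and among the 33 called genes with a window it stood in Klf2 only.

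Ephb4, a receptor of venous endothelium for ephrins, gave values of 10.01, 9.93 and 9.92 on control, 9.21, 8.93 and 9.27 on ventilated, 9.84, 10.03 and 9.86 on rhPBEF and 9.38, 9.32 and 9.39 on rhPBEF plus ventilated arrays. The groups with and without ventilation were far apart in both statuses. Ephb4 fell by 0.68 ± 0.07 (SE; limma adjusted p = 0.00523), and it was the 1 gene that passed without rhPBEF taken alone. Of 19 Eph receptors and ephrins tested it alone fell, and 18 did not pass. In this list 13 members had a positive effect (median 0.06). At an unadjusted p under 0.05, 2 were higher and 2 lower, beside 7.44% and 7.39% of all genes.

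Egfl7, a secreted protein of endothelial cells, fell by 0.52 ± 0.08 (SE; limma adjusted p = 0.0234), and its 4 probe sets ranged from -0.52 to -0.20. Of 26 endothelial markers tested, Eng and Egfl7 fell, 0 rose and 24 did not pass. At an unadjusted p under 0.05, 13 of the 26 were lower, beside 7.39% of all genes, and 4 did not overlap, beside 1.21%. The median was -0.21. The mean level of these markers over the arrays of a group ran from 11.73 to 11.81 in control, 11.16 to 11.54 in ventilated, 11.60 to 11.70 in rhPBEF and 11.36 to 11.65 in rhPBEF plus ventilated lungs. Ventilated array 2 was the lowest, and rhPBEF plus ventilated array 3 overlapped the rhPBEF group. No endothelial marker was at the bottom of the scale, and the part of endothelial RNA content in the falls of single genes was not tested. Of the 26 markers 5 fell without rhPBEF plus ventilated replicate 3, where 250 of all genes fell, beside 23 with all 12 arrays. Only 1 marker fell without any 1 control array, rhPBEF replicate 1 or 3, or rhPBEF plus ventilated replicate 1 or 2. In those fits 3 to 21 of all genes fell.

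Among 27 endothelial transcription factor and Notch genes, Klf2 fell and 26 did not pass. Of the 27 members 8 were lower at an unadjusted p under 0.05, beside 7.39% of all genes. Sox18, a transcription factor of vessel and lymphatic development, read 11.88, 12.02 and 11.81 on control, 10.90, 10.78 and 10.18 on ventilated, 11.73, 10.99 and 11.64 on rhPBEF and 10.69, 10.91 and 9.79 on rhPBEF plus ventilated arrays. No ventilated array overlapped its status, though rhPBEF array 2 and rhPBEF plus ventilated array 2 came close. Sox18 stood at -1.14 ± 0.20 (SE), just outside the threshold (limma adjusted p = 0.0516). Klf2, the called member, did not pass without any 1 control array, rhPBEF replicate 1 or 3, or rhPBEF plus ventilated replicate 1 or 2. Without rhPBEF plus ventilated replicate 3, 5 members fell, where 250 of all genes fell.

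Other falls lay outside the lists. Acaa1b, a peroxisomal thiolase of fatty acid breakdown, read 8.69, 8.63 and 8.57 on control, 8.20, 7.55 and 7.63 on ventilated, 9.20, 9.05 and 9.34 on rhPBEF and 7.63, 7.59 and 7.96 on rhPBEF plus ventilated arrays. The rhPBEF arrays were the highest and both ventilated groups the lowest. Acaa1b fell by 1.15 ± 0.11 (SE; limma adjusted p = 0.00523), and it was the 1 gene that passed with rhPBEF taken alone (difference -1.47 ± 0.16).

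Adgre5, which encodes the adhesion receptor CD97, read 12.49, 12.61 and 12.21 on control, 11.62, 11.19 and 11.27 on ventilated, 12.50, 11.73 and 12.11 on rhPBEF and 11.05, 11.37 and 11.60 on rhPBEF plus ventilated arrays. It did not overlap in either status, with rhPBEF array 2 and rhPBEF plus ventilated array 3 the closest pair. Adgre5 fell by 0.93 ± 0.14 (SE; limma adjusted p = 0.0286). The SH2 adaptor gene She stood at -0.75, the fibroblast growth factor receptor gene Fgfr3 at -0.74, N4bp3 at -0.61 and the Wnt co-receptor gene Lrp5 at -0.60, and these 4 falls passed with adjusted p-values of 0.0286, 0.0446, 0.00914 and 0.0234 (limma). The transcription factor gene Sox13 (-0.56), the scaffold gene Grasp (-0.53), the plakoglobin gene Jup (-0.51) and Tmc6 (-0.45) also fell. The remaining falls were those of Caskin2 (-0.50), Ripor1 (-0.44), the protease inhibitor gene Eppin (-0.38), the vitronectin gene Vtn (-0.32), Pigr and 1 RIKEN transcript, and the other probe set of Ripor1 read 0.04.

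Pigr, the receptor that carries polymeric immunoglobulin across epithelium, showed another arrangement of groups. Its values were 9.54, 9.30 and 9.64 on control, 9.13, 9.28 and 9.35 on ventilated, 10.51, 10.56 and 10.64 on rhPBEF and 9.83, 10.05 and 9.63 on rhPBEF plus ventilated arrays. The control and ventilated arrays overlapped, and of the 6 arrays with rhPBEF 5 lay above every array without it. Pigr fell by 0.49 ± 0.08 with ventilation (SE; limma adjusted p = 0.0495; exact permutation p = 0.01), while the main effect of rhPBEF on it was 0.83 (limma adjusted p = 5.13e-04).

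Il6, the interleukin 6 gene, had the largest effect of all genes. It read 4.63, 4.59 and 4.61 on control, 7.65, 10.30 and 7.78 on ventilated, 8.89, 10.45 and 8.61 on rhPBEF and 11.66, 10.32 and 11.09 on rhPBEF plus ventilated arrays. Ventilated array 2 stood more than 2 units above the other 2 of its group, and rhPBEF array 2 exceeded rhPBEF plus ventilated array 2. Il6 rose by 2.84 ± 0.47 (SE), a 7.14-fold rise (limma adjusted p = 0.0432; exact permutation p = 0.01). The differences were 3.97 ± 0.66 without and 1.70 ± 0.66 with rhPBEF. The control level is near the bottom of the scale, which began at 2.99, so the fold is a size as measured. Without any 1 control array, rhPBEF replicate 1 or 3, or rhPBEF plus ventilated replicate 1 or 2, Il6 did not pass. The call also ended over all probe sets (limma adjusted p = 0.0513), with the trend and robust options (adjusted p = 0.0516) and in an additive model (adjusted p = 0.0585).

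F3, the tissue factor gene, read 11.39, 11.71 and 11.90 on control, 12.06, 12.18 and 12.14 on ventilated, 10.95, 11.11 and 10.62 on rhPBEF and 11.74, 11.74 and 11.70 on rhPBEF plus ventilated arrays. The rhPBEF arrays were the lowest 3, and rhPBEF plus ventilated arrays lay inside the control range. F3 rose by 0.65 ± 0.10 (SE; limma adjusted p = 0.0272). Among 17 coagulation and fibrinolysis genes it alone rose, 0 fell and 16 did not pass.

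The promoters of Il6 and F3 are shown because both hold a match to TGANTCA, the letters bound by AP-1 factors. The capitals mark TGANTCA in both and, in Il6, the NF-kB site 44 to 35 bases before the start. The windows are chr5:30012864-30013113 for Il6 and chr3:121723287-121723536 for F3, both on the plus strand of GRCm38.p6 (RefSeq), each with the 250 bases before the start.
Il6: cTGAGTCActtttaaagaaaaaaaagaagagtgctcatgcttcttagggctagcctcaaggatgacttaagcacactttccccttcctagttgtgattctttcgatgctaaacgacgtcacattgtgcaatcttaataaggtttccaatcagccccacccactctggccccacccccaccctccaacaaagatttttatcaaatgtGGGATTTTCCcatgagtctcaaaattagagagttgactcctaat
F3: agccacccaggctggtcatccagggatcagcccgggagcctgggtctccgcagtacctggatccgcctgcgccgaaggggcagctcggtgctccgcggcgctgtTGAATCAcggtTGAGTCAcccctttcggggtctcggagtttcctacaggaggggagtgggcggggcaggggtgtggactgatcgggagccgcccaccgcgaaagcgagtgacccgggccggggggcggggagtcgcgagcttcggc
TGANTCA, which reads alike on both strands apart from its central base, was found in 4 of the 15 risen genes with a window (F3, Il6, Sgms2 and Trim15) and in 0 of the 18 fallen ones, where 7.81% of the 32851 windows and 7.54% of tested genes hold it. F3 holds it at 146 to 140 and at 135 to 129 bases before the start. The NF-kB site was found in 2 risen genes (Il6 and Krt18) and 3 fallen genes (Grasp, Jup and She), against 6.93% of windows and 9.4% of tested genes, and overlaps no TGANTCA match in Il6. No test was made of these counts.

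Trim15, a member of a ubiquitin ligase family, read 5.69, 5.76 and 5.98 on control, 6.94, 7.70 and 7.05 on ventilated, 6.29, 6.79 and 6.48 on rhPBEF and 7.62, 7.79 and 7.60 on rhPBEF plus ventilated arrays. All 3 arrays with both treatments lay above all rhPBEF arrays, and all ventilated arrays above all controls. Trim15 rose by 1.29 ± 0.13 (SE), a 2.44-fold rise (limma adjusted p = 0.00523).

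Gpr65, a proton-sensing receptor of leukocytes, read 6.22, 6.34 and 6.29 on control, 7.97, 7.79 and 7.13 on ventilated, 6.70, 7.23 and 6.90 on rhPBEF and 8.42, 8.03 and 7.45 on rhPBEF plus ventilated arrays. The third array was the lowest in both ventilated groups. Gpr65 rose by 1.18 ± 0.18 (SE; limma adjusted p = 0.0275). Of 15 neutrophil markers 0 passed. Their mean ran from 7.94 to 8.16 on control, 8.68 to 10.44 on ventilated, 9.84 to 10.14 on rhPBEF and 9.57 to 11.23 on rhPBEF plus ventilated arrays, again lowest on the third array of each ventilated group, and with rhPBEF it stood 1.27, 0.07 and -0.39 from the rhPBEF mean on arrays 1 to 3. The part of these cells in the rises of Gpr65 and Il6 was not tested.

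Sgms2, a sphingomyelin synthase gene of the plasma membrane, read 7.80, 7.36 and 7.46 on control, 8.83, 8.50 and 8.75 on ventilated, 7.99, 8.44 and 7.76 on rhPBEF and 8.94, 8.58 and 8.84 on rhPBEF plus ventilated arrays. Ventilated arrays were above the others in both statuses, by a small margin next to rhPBEF array 2. Sgms2 rose by 0.94 ± 0.12 (SE; limma adjusted p = 0.0189), and its other probe set gave 0.75.

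Ffar4, a receptor for long-chain fatty acids, read 9.32, 9.40 and 9.09 on control, 9.88, 10.08 and 9.93 on ventilated, 9.35, 9.12 and 8.75 on rhPBEF and 9.99, 9.83 and 9.79 on rhPBEF plus ventilated arrays. The 6 ventilated arrays were the 6 highest. Ffar4 rose by 0.75 ± 0.10 (SE; limma adjusted p = 0.0189). Rasgrp3, an activator of Ras, rose by 0.82, and Marchf1, a ubiquitin ligase acting on MHC class II molecules, by 0.70, although 1 of the 3 probe sets of Marchf1 read 0.00. The keratin genes Krt18 and Krt17 rose by 0.61 and 0.43, the second from a control level of only 4.06 and with its other probe set at 0.01. The endothelin gene Edn2 rose by 0.41, Glipr1 by 0.68, Iffo2 by 0.60, Cmtm3 by 0.35 and Camk2n2, an inhibitor of a calmodulin-dependent kinase, by 0.37. All of these passed with limma adjusted p-values between 0.0189 and 0.0450. Pmvk, a kinase of the mevalonate pathway, and 1 RIKEN transcript complete the 17.

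Among the genes just inside the threshold were Pigr (0.0495), Marchf1 (0.0450) and Rasgrp3 (0.0450), and among those just outside were Hmgcs1 (0.0505), Sox18 (0.0516) and Cyp51 (0.0516), given as limma adjusted p-values. The 40 genes are thus not set off from the next ones by a gap. Nampt, the mouse gene of PBEF, stood at 0.17 ± 0.08 (SE; limma adjusted p = 0.369), and its 3 probe sets ranged from -0.11 to 0.17.

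The 2 differences that make up the main effect were then compared. Over all 18193 genes the difference without rhPBEF and the difference with rhPBEF correlated at 0.486 (Pearson, across genes, which are not independent) and had the same sign for 66.0%. Of the 2456 genes at an unadjusted p under 0.05 without rhPBEF, 2094 (85.3%) had the same sign with it, and 288 also stood at an unadjusted p under 0.05 there. Of the 778 such genes with rhPBEF, 670 (86.1%) had the same sign without it. Differences spread less with rhPBEF, with an SD across genes of 0.162 against 0.248.

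All 40 called genes had one sign in both differences. Of the 40, 37 did not overlap in either status, where 458 of all 18193 genes did not. The choice of the 40 by the average on these same arrays favours both. The exceptions were Il6, Pigr and Pmvk. The difference was smaller with rhPBEF for 25 of the 40, with a median ratio of 0.82. Taken alone, the difference without rhPBEF gave 1 called gene, Ephb4, and the difference with rhPBEF gave 1, Acaa1b (limma). With any 1 array left out these counts ran from 0 to 42 and from 0 to 3, the highest without ventilated replicate 3 and without rhPBEF plus ventilated replicate 3.

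**Figure D3:**
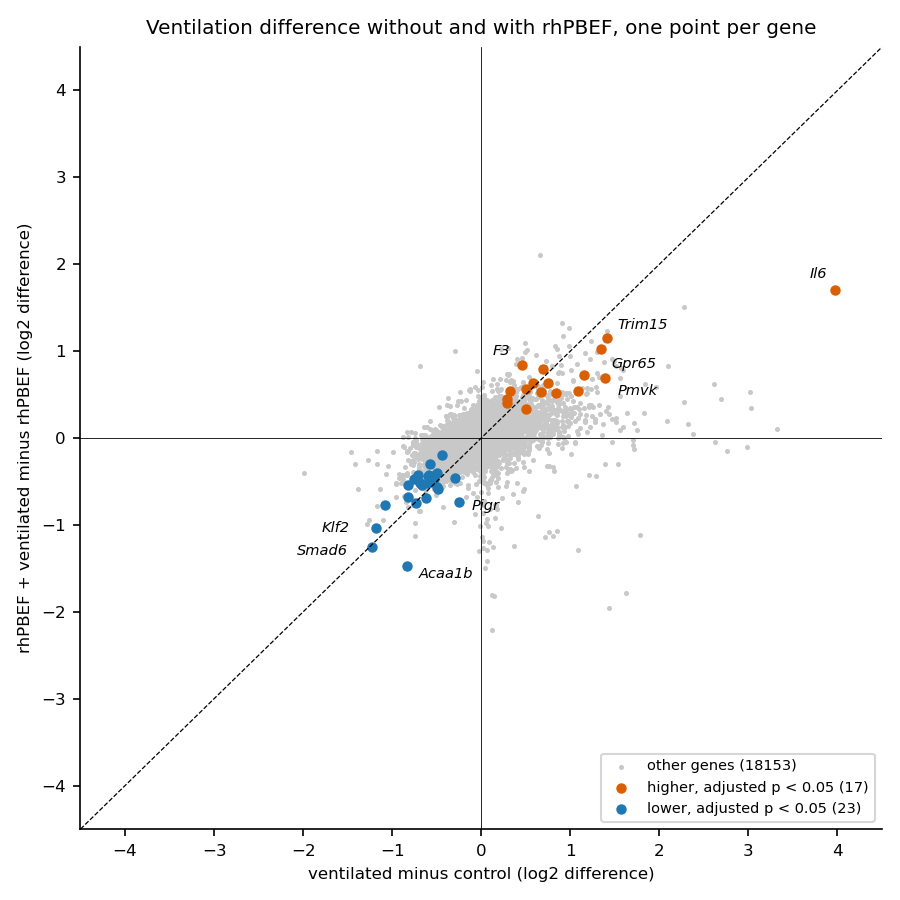
The ventilation difference without rhPBEF (horizontal axis) and with rhPBEF (vertical axis), both on the log2 scale, for 18193 genes. Orange and blue points are the 17 genes higher and 23 lower in the main effect, and the dashed line marks equal differences. Called genes lie in the upper right and lower left quadrants, and Il6 lies far below the line at 3.97 and 1.70.

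The interaction, the test of whether the ventilation difference itself changed with rhPBEF, passed for 0 of 18193 genes in limma, while 449 stood at an unadjusted p under 0.05. Within the 40 called genes 5 did so, namely Acaa1b, Il6, Pigr, Pmvk and Vtn. The difference of Pmvk was 1.39 ± 0.21 without and 0.69 ± 0.21 with rhPBEF (interaction -0.70 ± 0.30, limma adjusted p = 0.998). Over all genes the 3 smallest interaction p-values belonged to the keratin-associated gene Krtap17-1 (1.21 against -0.43), the fibrinogen gene Fgg (0.95 against -0.05) and the potassium channel subunit gene Kcnmb1 (-0.42 against 0.14), each with an adjusted p of 0.998. Without ventilated replicate 3 the interaction passed for 4 genes. Among 15 neutrophil markers 7 stood at an unadjusted interaction p under 0.05 with all arrays, and among 17 inflammatory cytokines 4 (limma).

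Whether a gene answered differently to ventilation than to rhPBEF was tested as the difference of the 2 main effects. In this design that difference equals VALI minus rhPBEF, 3 arrays against 3. The control and combined arrays enter it only through the estimate of spread. This passed for 89 of 18193 genes (0.489%), and 11 of the 40 genes were among them, a count that the choice of genes with a ventilation effect favours. For F3 the effects had opposite signs, 0.65 for ventilation and -0.58 for rhPBEF (difference 1.23 ± 0.14, limma adjusted p = 0.00355). Krt18 stood at 0.61 and -0.42 (difference 1.03 ± 0.14, limma adjusted p = 0.00871), and Camk2n2 at 0.37 and -0.30 (adjusted p = 0.00676). Ephb4 had -0.68 for ventilation against 0.09 for rhPBEF, and Eng had -0.60 against -0.07 (limma adjusted p = 0.00500 and 0.0294). Acaa1b and Pigr differed by -1.40 and -1.32. Ffar4, Edn2, Cmtm3 and Pmvk were the other 4. The count of 89 became 153 without ventilated replicate 3 and 169 without rhPBEF plus ventilated replicate 3, and it lay between 40 and 57 without control replicate 1 or 2, ventilated replicate 1 or 2, or any 1 rhPBEF array. Smad6 had -1.24 and -0.34, and the difference of -0.90 ± 0.23 did not pass (limma adjusted p = 0.172). That of Klf2, -1.04 ± 0.23, did not pass either (adjusted p = 0.10). Il6 had 2.84 and 3.58, with a difference of -0.74 ± 0.66 that did not pass (adjusted p = 0.662).

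Inflammatory gene lists had positive medians, few or no members past the test, and a strong dependence on single arrays. Of 17 inflammatory cytokines Il6 rose, 0 fell and 16 did not pass, and 7 were higher at an unadjusted p under 0.05 beside 7.44% of all genes (median 0.26). Of 27 chemokines 0 passed and 2 were higher at that p (median 0.18). Cxcl2, a neutrophil attractant, stood at 1.30 ± 0.36 (SE), made of 2.76 without and -0.15 with rhPBEF. Of 20 NF-kB subunits, inhibitors and targets 0 passed, and 6 were higher and 1 lower at that p (median 0.35). Nfkbiz stood at 0.92 and Selp, the P-selectin gene, at 1.19 (limma unadjusted p = 0.0074 and 0.069 over all probe sets). Of 13 interleukin 6 receptor and STAT3 feedback genes 0 passed and 6 were higher (median 0.31), led by Socs3 at 1.35 ± 0.25 (limma adjusted p = 0.0584). Of 18 Toll-like receptor and acute phase genes 0 passed and 3 were higher at an unadjusted p under 0.05 (median 0.25). Ptx3 stood at 1.39 and Saa3 at 0.86 (limma unadjusted p = 0.014 and 0.095 over all probe sets). Of 16 interferon-stimulated genes 0 passed and 0 were higher or lower at an unadjusted p under 0.05 (median 0.11, limma). Array 3 of the combined treatment lay below the rhPBEF mean for all 6 of these lists, with chemokines at -0.70. Without that array the medians were 0.53 for cytokines, 0.29 for chemokines, 0.54 for NF-kB genes, 0.47 for interleukin 6 and STAT3 genes, 0.39 for Toll-like receptor genes and 0.25 for interferon-stimulated genes. Without array 1 of the combined treatment those of cytokines, chemokines, NF-kB genes and interferon-stimulated genes were 0.10, 0.03, 0.20 and 0.03. The chemokine median was also 0.10 without rhPBEF replicate 3 and 0.09 without rhPBEF plus ventilated replicate 2.

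Genes that cells switch on soon after a stimulus stood higher, again without a call. Of 27 immediate early genes 26 had a positive effect, where 9442 of all 18193 genes did, and 0 passed (median 0.55). At an unadjusted p under 0.05, 14 were higher and 1 lower, beside 7.44% and 7.39% of all genes. The nuclear receptor gene Nr4a1 stood at 1.19 ± 0.45 and Atf3 at 1.02 ± 0.54 (SE). On ventilated array 2 the list mean was 1.59 above the controls, against 0.28 and 0.39 on arrays 1 and 3, and 0.48, 0.11 and 0.19 above the rhPBEF mean on the arrays with both treatments. Without ventilated array 2 the median was 0.39. Just 1 of the 27 members was without overlap on the higher side, beside 1.3% of all genes.

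MAP kinase feedback genes, which many of the same stimuli induce, had a positive median too. Of 14 tested 0 passed (median 0.39, or 0.24 without ventilated replicate 2). At an unadjusted p under 0.05, 7 were higher and 1 lower, beside 7.44% and 7.39% of all genes. On the higher side 4 did not overlap, beside 1.3% of all genes. Spry4, a receptor kinase inhibitor, read 8.72, 8.55 and 8.94 on control, 9.48, 10.52 and 9.87 on ventilated, 9.15, 9.71 and 9.03 on rhPBEF and 10.66, 9.87 and 10.08 on rhPBEF plus ventilated arrays. All ventilated arrays exceeded the others of their status, most narrowly next to rhPBEF array 2. Spry4 stood at 1.06 ± 0.20 (SE; limma adjusted p = 0.0563), and Dusp16 at 0.66. Of 12 epidermal growth factor receptor ligands, receptors and inhibitors 0 passed (median 0.29, or 0.18 without ventilated replicate 2). At an unadjusted p under 0.05, 6 were higher and 1 lower, beside 7.44% and 7.39% of all genes. Epiregulin, Ereg, stood at 1.19 ± 0.24 (limma adjusted p = 0.0736) and Hbegf at 0.61. Of 17 stretch and matrix injury genes 0 passed (median 0.41), and 6 were higher at that unadjusted p, beside 7.44% of all genes. The hyaluronan synthase gene Has1 stood at 1.19 ± 0.28 and Tnfaip6, whose product binds hyaluronan, at 1.07 ± 0.28. The median of this list was 0.20 without rhPBEF plus ventilated replicate 1 and 0.23 without rhPBEF replicate 3. Of 15 YAP targets and mechanosensitive channel genes 0 passed, and the sign of their median, -0.04, changed in 6 of 24 alternative settings.

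**Figure D4:**
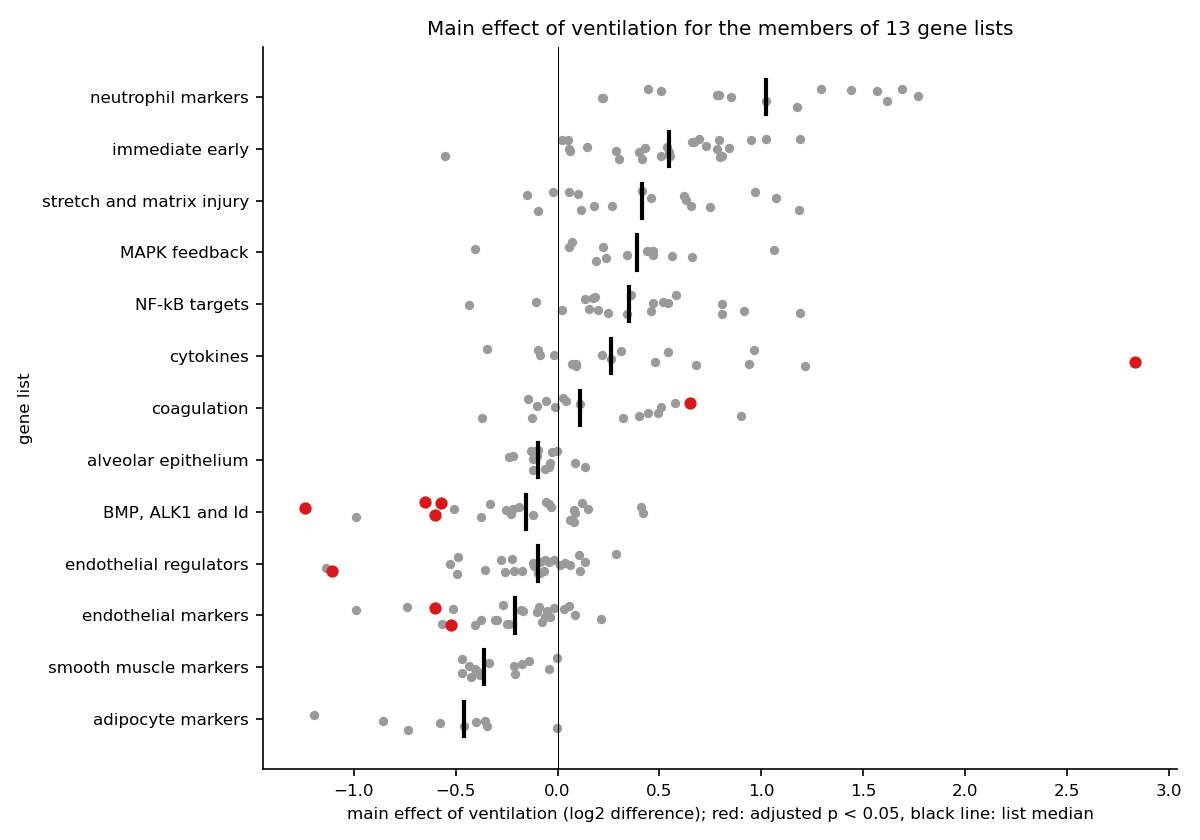
Main effect of ventilation on the log2 scale for the members of 13 gene lists, each point a gene, red where the adjusted p was under 0.05 and with a black line at the list median. Red points are Il6 among the cytokines, F3 in coagulation, and Smad6, Id1, Eng, Acvrl1, Klf2 and Egfl7 in the vascular lists, Eng appearing in both the BMP and the endothelial list.

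Lists of tissue functions held 0 called genes, where 0.22% of all genes were called. Their counts at an unadjusted p under 0.05 stand beside 7.44% of all genes higher and 7.39% lower. Of 17 lung ion, water and junction genes 4 were higher and 3 lower at an unadjusted p under 0.05, with the tight junction gene Cldn4 at 1.12 ± 0.28 and the chloride channel gene Cftr at 0.76 ± 0.14 (limma adjusted p = 0.128 and 0.0563). Of 19 circadian clock genes 3 were higher and 4 lower, with Nfil3 at 1.46 and Noct at 1.13 (limma adjusted p = 0.123 and 0.0516). Of 23 vascular growth factors and receptors 8 were lower and 0 higher (median -0.09), with the adrenomedullin receptor partners Ramp3 at -0.61 and Ramp2 at -0.57. Of 20 prostaglandin and leukotriene genes 2 were higher and 4 lower, with the cyclooxygenase gene Ptgs2 at 1.12. Of 11 cytochrome P450 and aryl hydrocarbon receptor genes 4 were lower and 1 higher (median -0.12), with Cyp1a1 at -0.86 and Cyp2e1 at -0.81. Of 16 heat shock genes 0 stood at an unadjusted p under 0.05 in either direction. Their median of 0.19 turned to -0.17 without ventilated array 2, and it was 0.50 without ventilated array 3. The median was 0.13 for 14 glucocorticoid-induced genes, 0.16 for 15 integrated stress and unfolded protein response genes, 0.07 for 18 hypoxia-induced genes, 0.08 for 17 adhesion molecules and 0.05 for 22 cell cycle genes. It was 0.02 for 15 p53 targets, 0.00 for 18 antioxidant genes and 0.03 for 13 MHC class II and dendritic cell genes, and of these lists the last 3 and the cell cycle list changed sign under some settings. Of 17 genes of NAD metabolism, in which PBEF acts as an enzyme, 1 was higher and 3 lower (median -0.01, of unsettled sign).

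Marker lists of other cell types held 0 called genes, where 0.22% of all genes were called. Over all 18193 genes 9442 had a positive and 8751 a negative effect. Of all genes 7.44% were higher and 7.39% lower at an unadjusted p under 0.05 (limma). All 15 neutrophil markers had a positive effect, 11 at an unadjusted p under 0.05, and 0 passed (median 1.02). The median was 1.56 without and 0.27 with rhPBEF. The interaction stood at an unadjusted p under 0.05 for 7 of the 15 (limma), beside 449 of all 18193 genes, and passed for 0. Clec4d and Mmp8 stood at 1.77 ± 0.49 and 1.69 ± 0.52 (SE). Without ventilated replicate 3, 6 of the 15 rose, where 48 of all genes rose, beside 17 with all arrays. All 9 adipocyte markers were negative, 6 of them at an unadjusted p under 0.05 for the main effect, and 0 passed (median -0.46). Among these Pck1 stood at -1.20 (limma adjusted p = 0.0611) and Adipoq at -0.86. Control array 1 lay 0.76 above the control mean of the adipocyte list. All 14 smooth muscle and pericyte markers were negative with 4 at that p (median -0.36), and ventilated array 1 stood at -1.0 against -0.19 and -0.18 on arrays 2 and 3. All 12 cardiac markers were negative with 0 at that p (median -0.35). Without ventilated replicate 1 the cardiac median was -0.08 with 2 members positive and the smooth muscle median -0.19, and the cardiac median was -0.22 without control replicate 1 or rhPBEF replicate 2. Of 7 mesothelial markers 5 were higher (median 0.29), led by Upk3b at 0.44. Of 15 alveolar epithelial markers 0 stood at an unadjusted p under 0.05, of 13 macrophage and monocyte markers 0, of 9 B cell markers 0 and of 16 T and NK cell markers 0, with medians of -0.09, -0.11, -0.03 and 0.06, that of B cells changing sign in 3 of 24 settings. Fibroblast, ciliated and club cell markers had medians of -0.11, -0.11 and -0.06. The part of these lists in the calls was not tested. Of the 46 lists, 37 had a median that moved by over 1.5 times without at least 1 array. The 9 others were those of BMP signalling, endothelial, neutrophil, adipocyte and mesothelial markers, immediate early, coagulation, hypoxia-induced and cytochrome P450 genes.

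The number of called genes depended on single arrays, whereas the directions of the 40 called genes did not in the settings run. Their choice by small p on these same arrays favours kept directions and small p, since each fit below reuses all but 1 array. Without control replicate 1 or 2, rhPBEF replicate 1 or 3, or rhPBEF plus ventilated replicate 1 or 2, the count was 7, 4, 6, 7, 7 and 9 in that order. Without ventilated replicate 3 it was 78, without rhPBEF replicate 2 it was 64, and without rhPBEF plus ventilated replicate 3 it was 437. Each of the 40 genes kept its direction and an unadjusted p under 0.05 in all 12 of these fits. Eng, Ephb4, Acaa1b and Trim15 passed in all 12 as well, Smad6 and Sgms2 in 8, F3 and Acvrl1 in 6, Klf2, Egfl7 and Il6 in 5, and Id1 and Gpr65 in 4.

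**Figure D5:**
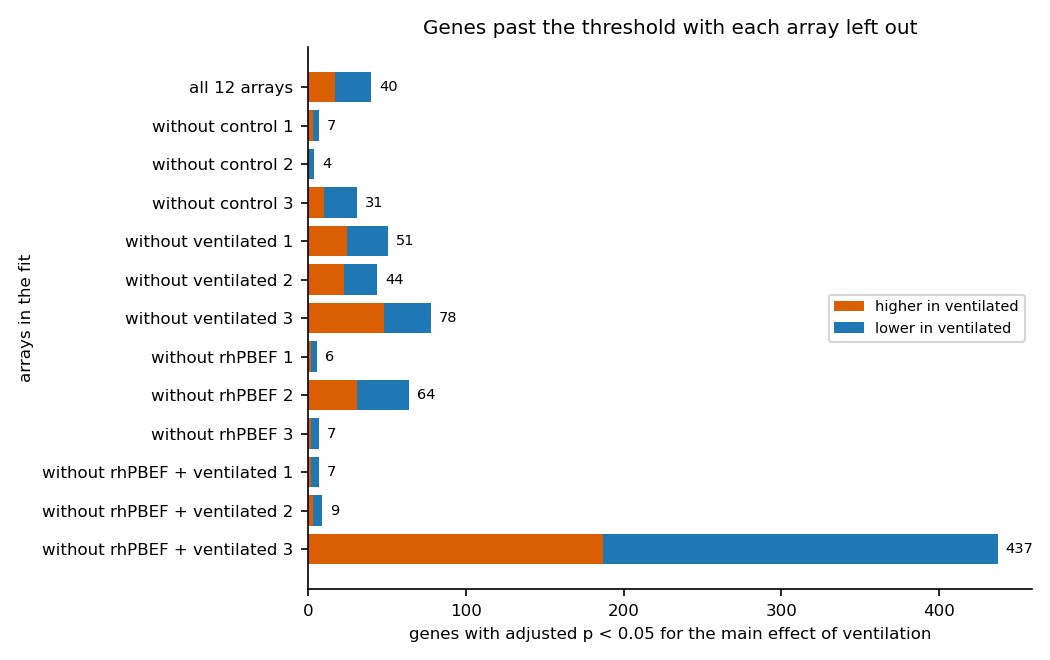
Genes with an adjusted p under 0.05 for the main effect with all 12 arrays and with each array left out, split into genes higher (orange) and lower (blue) with ventilation. The count is 40 with all arrays and lies between 4 (without control 2) and 78 (without ventilated 3) in 11 of the 12 other fits, reaching 437 without the third array of the combined treatment.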

How the data were processed

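Lung RNA was measured on 12 arrays. The authors deposited 1 table of log2 values with a column for every array. The tools MAS5 and GCRMA are named, without a role, in the labels' list from the submitters' processing notes, and how the values were normalised or background-corrected is not given in the sources used here. Without detection calls in it, background and a low level cannot be separated, and the small number of arrays bounds the precision.

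Of 45101 probe sets, 64 controls were left out. Of the remainder 34945 carried 1 symbol in the platform annotation, 932 several and 9160 none, and no filter on level was set. The 4 group means were fitted by lmFit and eBayes (limma 3.58.1, R 4.3.3) with 8 residual degrees of freedom and 3.14 from the prior. Adjustment was by the Benjamini-Hochberg method over the 18193 genes of each contrast. Lists were described by counts and medians. The code was tested on simulated data. Figures were drawn with matplotlib 3.10.9.

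The effect studied and the 46 lists (774 entries, 730 tested) were chosen with earlier results of these data known. Named genes were the 15 largest rises and falls past 0.05 without overlap, the 10 smallest adjusted p-values, the leading members of lists (up to 4 that passed, otherwise 2), the 3 smallest interaction p-values, and Il6, Nampt, Ephb4, Smad6 and Sox18. The other called genes and those just outside the threshold were named after their values were seen. RIKEN transcripts were not named. Alternatives tried concerned the filter, scaling, probe sets, variance model, array weights, replicate block, arrays, model and threshold.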

Additional observations from a re-analysis of the deposited data

Results flagged for a closer look

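For 2 of the 3 genes with the smallest interaction p-values, every ventilated array lay on one side of the mean of the arrays not ventilated without rhPBEF, and on the opposite side with it. For the fibrinogen gene Fgg the ventilation difference was 0.95 without and -0.05 with rhPBEF, an interaction of -1.0 (limma unadjusted p = 8.32e-04, adjusted p = 0.998). For the potassium channel gene Kcnmb1 it was -0.42 without and 0.14 with rhPBEF, an interaction of 0.56 (limma unadjusted p = 0.00149, adjusted p = 0.998). Neither interaction passed the test over 18193 genes.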

How the results depend on the processing

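For the main effect (40 genes) the count was 71 with a filter at the 40th percentile of level, 67 after quantile normalization, 64 in an additive model, 65 with the 2 arrays high in skeletal muscle markers left out, and 5 at an adjusted p under 0.01. It was 53 with arrays centred on their medians and 2090 with array weights, whose estimation did not converge, giving 1 array a weight of 10.3. Without ventilated replicate 2 and rhPBEF plus ventilated replicate 3, a setting chosen after seeing the data, it was 461. With each array left out in turn it ran from 4 to 437. In all these fits the called genes present kept their direction, 38 of them under the filter and 40 elsewhere. Their choice on the same arrays favours this. For VALI against control (1 gene) the count was 4 over all probe sets, 4 with probe sets averaged, 0 with trend and robust, 314 with array weights, 33 without the arrays high in muscle genes, and 0 to 42 with each array left out. For rhPBEF & VALI against rhPBEF (1 gene) these were 0, 2, an equal count with trend and robust, 249, 0, and 0 to 3. The interaction (0 genes by limma, 449 at an unadjusted p under 0.05, and 0 with array weights) gave 2 without the arrays high in muscle genes and 0 to 4 with each array left out. Ventilation minus rhPBEF (89 genes) gave 179 with array weights, 44 without the arrays high in muscle genes, and 40 to 169 with each array left out. The cause of these shifts was not tested. With a replicate block the counts were 51, 0, 0, 0 and 86 in the order above. Of the 40 genes 33 were among the 51, and Iffo2, Krt18, Pigr, Rasgrp3, Ripor1, She and Vtn did not pass with the replicate block (limma adjusted p from 0.0557 to 0.0803). Whether replicate numbers pair the arrays was not tested. After removal of group means, 7 of 18 same-numbered pairs correlated above 0.1 (range -0.17 to 0.46). The third array of the combined treatment correlated at 0.46 with rhPBEF array 3 and at 0.34 with ventilated array 3. Of the 12 arrays 6 were most like one of their own number. With each named gene counted once in every alternative setting, 629 calls were kept and 329 lost significance. Of values not called 1813 stayed so, 120 passed and 5 changed sign. Calls of genes low on the scale are limited by the unknown background.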

Other observations

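Pmvk read 10.30, 10.14 and 10.18 on control, 11.56, 11.37 and 11.86 on ventilated, 9.77, 10.60 and 10.07 on rhPBEF and 11.18, 10.80 and 10.52 on rhPBEF plus ventilated arrays, with an overlap between rhPBEF array 2 and array 3 of the combined treatment, and rose by 1.04 ± 0.15 (SE; limma adjusted p = 0.0234). It belongs to the mevalonate pathway, and 20 genes of that pathway and of sterol synthesis were listed after the values were seen, so that what follows is a description. Of the 17 tested Pmvk rose and 16 did not pass. At an unadjusted p under 0.05, 8 were higher and 2 lower, beside 7.44% and 7.39% of all genes. On the higher side 4 did not overlap in either status, beside 1.3% of all genes. The median effect was 0.24, beside 0.00 for all genes. Hmgcs1, the gene of hydroxymethylglutaryl-CoA synthase, read 11.01, 11.01 and 11.30 on control, 11.41, 11.58 and 11.79 on ventilated, 11.37, 11.24 and 11.25 on rhPBEF and 11.61, 11.75 and 11.80 on rhPBEF plus ventilated arrays. All 6 ventilated arrays were the highest 6. Its effect was 0.46 ± 0.08 (SE; limma adjusted p = 0.0505). Idi1, an isomerase of the same pathway, stood at 0.51 ± 0.09 and the lanosterol demethylase gene Cyp51 at 0.61 ± 0.11 (limma adjusted p = 0.0505 and 0.0516). On ventilated arrays 1 to 3 the list averaged 0.15, 0.24 and 0.32 above the controls, and on the arrays of the combined treatment 0.19, 0.26 and 0.15 above the rhPBEF mean.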
